A study of Mus musculus with 16 samples.

Results

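Interferon-stimulated genes are the genes that cells switch on when an interferon binds its receptor, and they were followed here through the injury of the mouse striatum. The set was a list of 49 gene symbols, and the 43 of them that the count table holds were analysed, out of 19457 genes. Oas1b, Oas3, Ifi44, Usp18, Mx1 and Zbp1 are not in the table and were not analysed here. RNA was sequenced from 16 libraries of mouse striatum in 8 groups of 2. The GS mice are taken to bear the LRRK2 change G2019S, from the title of the series. Their striatum was intact (GS intact) or was collected 6 h, 3 d or 15 d after ATP (GS 6 h, GS 3 d, GS 15 d). ATP was given on 1 side, as 0.8 µl at 500 mM, with the animals under tribromoethanol. The WT groups were the same stages in mice labelled WT (WT intact, WT 6 h, WT 3 d, WT 15 d). The labels used here give no strain, age or sex, no kind of allele behind GS, and no statement on pooling of animals. The injected groups share the needle track and the injected volume as well as ATP, and the labels name no injection without ATP.

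In the known pathway, type I interferons signal through the kinases Jak1 and Tyk2 to a complex that holds Stat2 and Irf9 and binds the interferon-stimulated response element (ISRE), while the response to interferon gamma runs through the gamma-activated site (GAS). Target genes include antiviral enzymes, sensors of foreign RNA, GTPases that attack intracellular vacuoles, and transcription factors such as Irf7 that extend the response. In brain tissue microglia, astrocytes, endothelium and infiltrating leukocytes can all express them, so a level in whole striatum belongs to no single cell type. Fewer cells of a type and less RNA per cell cannot be told apart in these libraries.

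The promoters of the set are shown first because both elements can be read in them. RefSeq promoter sequence (GRCm38.p6, which is mm10) was available for 34 of the 43 genes, and the 250 bases before each annotated start were searched on both strands for the ISRE (2 copies of GAAA with any 2 bases, N, between them) and for the GAS letters TTCNNNGAA, overlapping matches included. An ISRE match was present in 15 of 34 genes (44.1%), against 3.16% of the 13628 genes of the count table that have a promoter sequence. At least 2 ISRE matches were present in 8 of the set (23.5%) and in 0.22% of the table. GAS matches were present in 9 (26.5%) and in 7.27% of the table. These genes are known targets of interferon, so the shares describe the list and test nothing about the injury.

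The sequences below read 5′ to 3′ towards the gene and cover the last 150 bases before the start, or 250 for Ifit3 and Ifit3b. Of them, Isg15 (chr4:156200819-156200968, minus strand), Ifit1 (chr19:34640739-34640888, plus strand), Oas1a (chr5:120907526-120907675, minus strand) and Irgm1 (chr11:48871421-48871570, minus strand) are shown for genes that rose strongly and hold repeated ISRE matches. Ifit3 (chr19:34583279-34583528, plus strand) and Ifit3b (chr19:34607707-34607956, plus strand) are shown as a duplicated pair, Irf1 (chr11:53769864-53770013, plus strand) for its single GAS match, and the neighbours Rsad2 (chr12:26456453-26456602, minus strand) and Cmpk2 (chr12:26469065-26469214, plus strand) as neighbours with unlike responses. Capitals mark ISRE matches, which read TTTC first where they lie on the other strand, and in Irf1 the GAS match. The GAS match of Oas1a is left in lower case.
Isg15: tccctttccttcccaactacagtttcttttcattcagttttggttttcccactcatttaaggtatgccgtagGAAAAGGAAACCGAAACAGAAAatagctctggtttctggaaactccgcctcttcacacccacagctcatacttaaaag
Ifit1: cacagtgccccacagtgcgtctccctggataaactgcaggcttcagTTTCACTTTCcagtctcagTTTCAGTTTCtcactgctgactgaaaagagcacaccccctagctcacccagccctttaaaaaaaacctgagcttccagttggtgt
Oas1a: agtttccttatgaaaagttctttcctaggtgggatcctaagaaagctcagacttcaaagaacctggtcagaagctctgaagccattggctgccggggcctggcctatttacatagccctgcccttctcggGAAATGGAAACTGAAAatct
Irgm1: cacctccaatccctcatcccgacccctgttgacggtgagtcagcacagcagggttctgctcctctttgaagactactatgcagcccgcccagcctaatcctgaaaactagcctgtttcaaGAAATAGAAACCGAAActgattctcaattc
Ifit3: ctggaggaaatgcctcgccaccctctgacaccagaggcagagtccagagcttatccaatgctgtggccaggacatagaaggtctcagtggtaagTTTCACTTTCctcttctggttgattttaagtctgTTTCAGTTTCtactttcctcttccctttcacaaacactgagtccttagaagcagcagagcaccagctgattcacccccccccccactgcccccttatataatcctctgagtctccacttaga
Ifit3b: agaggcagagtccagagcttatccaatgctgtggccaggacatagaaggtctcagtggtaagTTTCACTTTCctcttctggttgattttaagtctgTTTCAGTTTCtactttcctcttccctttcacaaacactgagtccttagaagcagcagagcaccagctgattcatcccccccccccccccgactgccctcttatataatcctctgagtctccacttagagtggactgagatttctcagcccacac
Irf1: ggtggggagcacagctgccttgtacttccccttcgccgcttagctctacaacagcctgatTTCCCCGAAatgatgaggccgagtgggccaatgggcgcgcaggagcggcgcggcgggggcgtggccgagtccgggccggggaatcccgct
Rsad2: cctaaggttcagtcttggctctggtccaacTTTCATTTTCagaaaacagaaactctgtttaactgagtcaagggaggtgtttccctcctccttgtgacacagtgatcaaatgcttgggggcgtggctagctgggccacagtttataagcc
Cmpk2: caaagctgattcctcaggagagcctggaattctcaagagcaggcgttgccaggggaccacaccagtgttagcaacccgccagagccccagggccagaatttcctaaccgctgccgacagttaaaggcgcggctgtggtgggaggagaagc

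In Isg15 the 3 ISRE matches overlap and begin 78, 72 and 66 bases before the start. In Oas1a they begin 20 and 14 bases before it, and in Irgm1 30 and 24 bases before it. Ifit3 and Ifit3b carry the same pair at a shift of 32 bases, and 188 of 218 aligned bases (86.2%) are equal between them. Rsad2 holds 1 ISRE match 120 bases before its start, while Cmpk2, which lies beside it on the other strand, holds none in this window. Irf7, Ifih1, Ddx58 and Oasl2 also hold none in the 250 bases, and they rose at 3 d.

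**Figure D1:**
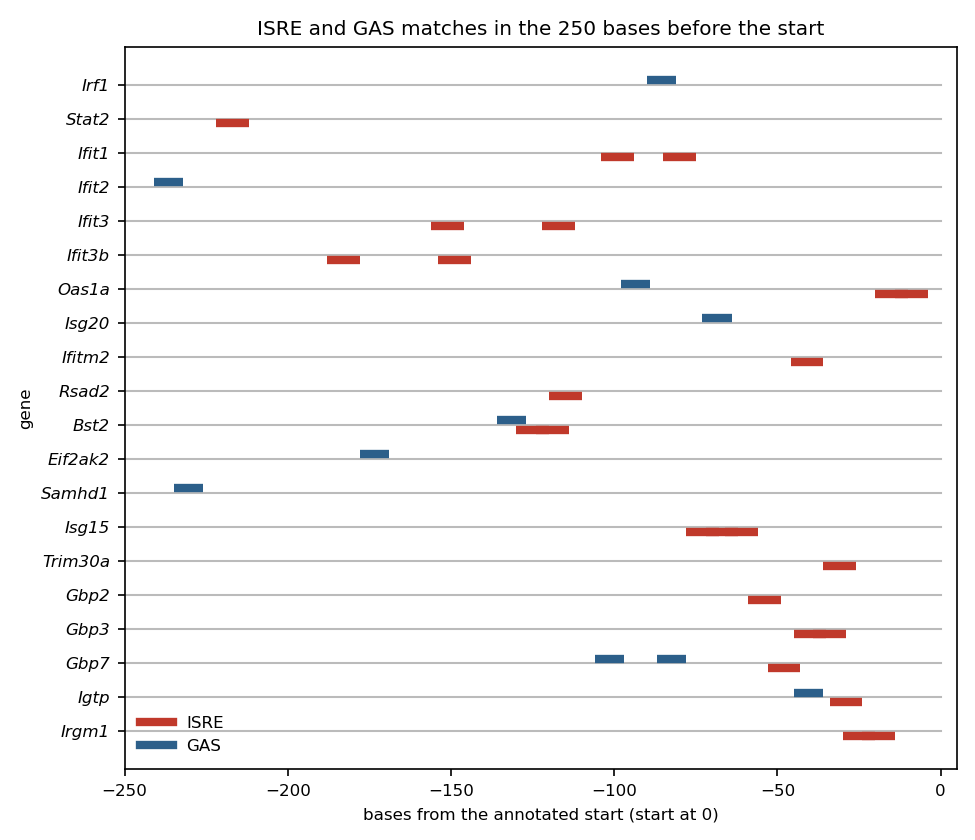
Positions of ISRE (red) and GAS (blue) matches in the 250 bases before the annotated start, for the genes of the set with at least 1 match; the x axis gives bases from the start. The ISRE matches lie within 130 bases of the start except in Stat2, Ifit3 and Ifit3b.

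Total counts ran from 49220578 to 63948110 per library, and all 43 genes passed the low-count filter, which left 18813 genes tested. The table lists no gene with a count of 0 in any library, so a gene silent anywhere is not analysed here. Striatal neuron markers (7 of 7 tested, among them Drd1, Drd2 and Ppp1r1b) summed to 4764 to 7891 TMM-scaled CPM, so the defining markers of the labelled tissue are present. Cortical neuron markers (8 of 8 tested) summed to 277 CPM in WT intact replicate 1 and 236 CPM in WT 6 h replicate 2, against 62.8 to 131 CPM in the other libraries. By their mean log2 level WT 15 d replicate 1 was also high. Choroid plexus markers (5 of 5 tested) varied between libraries of both genotypes. They summed to 385 and 64.8 CPM in GS intact replicates 1 and 2, 45 and 210 CPM in those of GS 6 h, and 27.7 to 249 CPM in the other libraries. The part of choroid plexus tissue in the values of the set was not tested. Fold changes are edgeR log2 fold changes over 2 libraries a group. The ± value is a standard error worked back from the F statistic of the model, whose estimate of spread is shared over all 16 libraries. The words "rose" and "fell" mean a Benjamini-Hochberg adjusted p under 0.05 over all 18813 genes.

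At 3 d after ATP nearly the whole set was higher than in intact striatum. In GS 40 of 43 genes rose and none fell, with a median log2 fold change of 2.19 (range -0.059 to 4.98), against -0.01 over all genes tested, of which 18.6% rose. In WT 38 of 43 rose and none fell, with a median of 1.75 (range -0.20 to 4.02), against -0.013 over all genes, of which 14.7% rose. The same 37 genes rose in both genotypes. Mx2, Samhd1 and Xaf1 rose in GS alone by the threshold, Ifitm2 in WT alone, and Stat2 and Cmpk2 in neither, and the difference between genotypes passed for none of these 6. Without the 3 WT libraries high in cortical markers, 31 of 43 passed in WT.

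**Figure D2:**
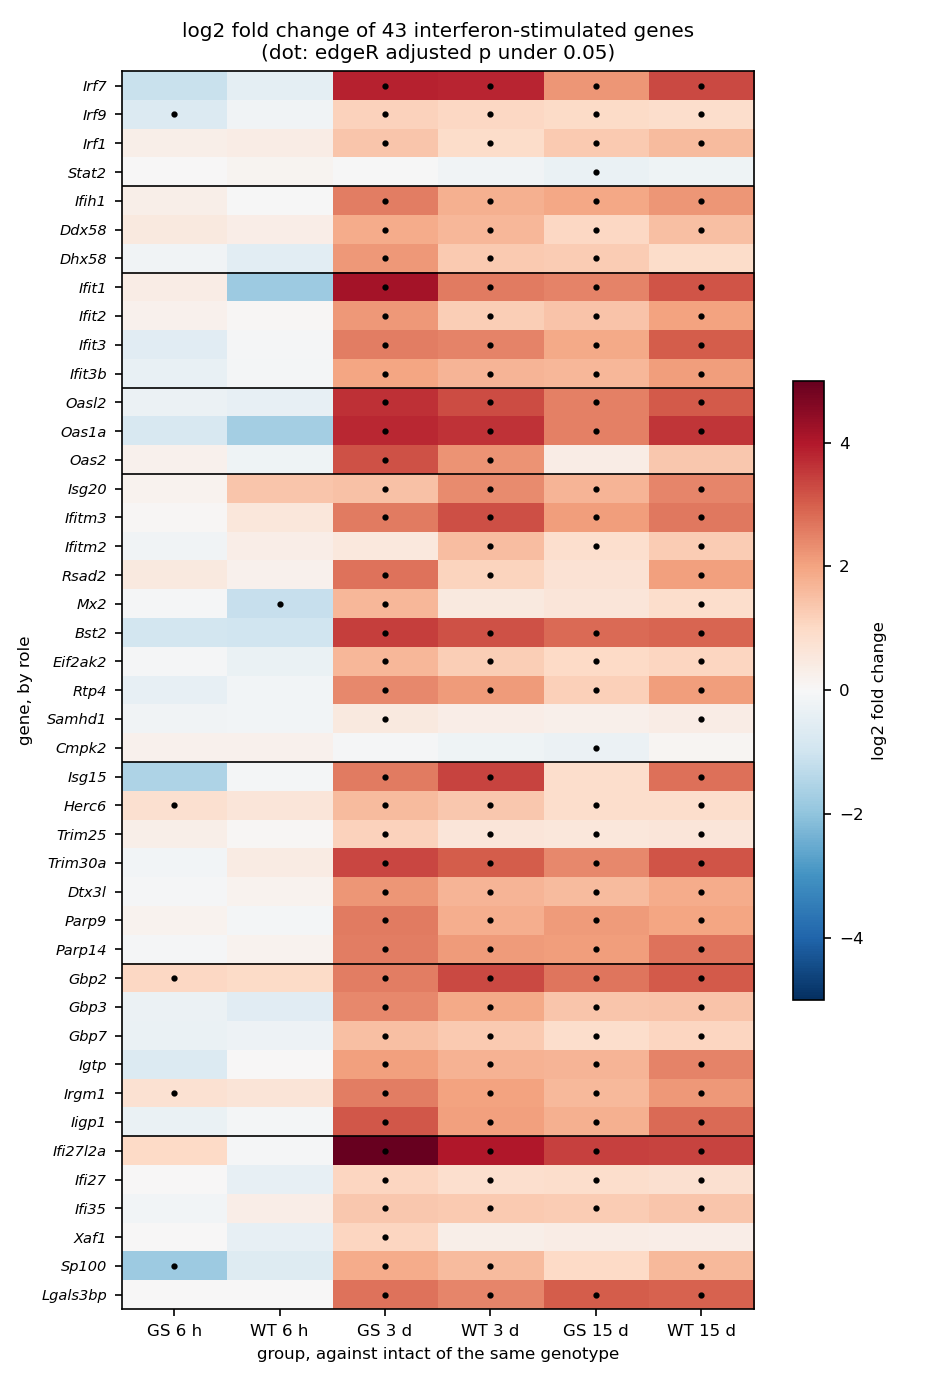
Heat map of the edgeR log2 fold change of the 43 genes (rows, grouped by role) in GS and WT striatum at 6 h, 3 d and 15 d, each against intact striatum of its genotype; a dot marks an adjusted p under 0.05. Columns of 6 h are pale with 6 dots, and those of 3 d and 15 d are red for all but a few genes.

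Among the transcription factors, Irf7, the factor that amplifies type I interferon production, changed most. Irf7 had 8.05 and 12 CPM in GS at 3 d, against 0.804 and 0.582 CPM in intact GS striatum. Irf7 in WT had 2.85 and 8.78 CPM at 3 d, against 0.57 and 0.244 CPM in intact tissue. Every 3 d library stood above every intact library, and the fold change was 3.85 ± 0.59 in GS and 3.82 ± 0.63 in WT (edgeR adjusted p = 0.000218 and 0.00063). Irf1, a factor induced by interferon gamma, and Irf9, the DNA-binding part of the complex with Stat2, moved less. Irf1 had 4.68 and 7.53 CPM in GS at 3 d, against 2.15 and 2.51 CPM in intact GS striatum. Irf1 in WT had 4.08 and 5.42 CPM at 3 d, against 2.87 and 2.22 CPM in intact tissue, and the fold change was 1.38 ± 0.24 in GS and 0.90 ± 0.24 in WT. Irf9 changed by 1.16 ± 0.14 in GS and 1.05 ± 0.14 in WT. Stat2, which gives that complex its activating domain, did not follow. Stat2 had 23.5 and 28.7 CPM in GS at 3 d, against 25.9 and 26.8 CPM in intact GS striatum. Stat2 in WT had 21.6 and 22.8 CPM at 3 d, against 26.8 and 23.5 CPM in intact tissue, and the fold change was -0.014 ± 0.11 in GS and -0.18 ± 0.11 in WT (edgeR adjusted p = 0.934 and 0.228).

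All 3 tested sensors of cytoplasmic RNA rose in both genotypes. Ifih1 had 4.59 and 6.43 CPM in GS at 3 d, against 1.23 and 0.65 CPM in intact GS striatum. Ifih1 in WT had 2.73 and 4.53 CPM at 3 d, against 1.16 and 0.939 CPM in intact tissue. Ifih1, which encodes MDA5, a detector of long double-stranded RNA, changed by 2.55 ± 0.44 in GS and 1.79 ± 0.43 in WT, and no 3 d library fell within the intact range. Dhx58, which encodes LGP2, a regulator of both helicases, changed by 2.16 ± 0.41 in GS and 1.29 ± 0.40 in WT. Ddx58, which encodes RIG-I, a detector of short 5′-triphosphate RNA, changed by 1.86 ± 0.25 in GS and 1.67 ± 0.25 in WT.

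The IFIT genes rose in all 4 members in both genotypes. Among them Ifit1 encodes a protein that binds viral RNA that lacks host cap methylation. Ifit1 had 6.02 and 9.28 CPM in GS at 3 d, against 0.427 and 0.428 CPM in intact GS striatum. Ifit1 in WT had 2.81 and 4.7 CPM at 3 d, against 0.41 and 0.845 CPM in intact tissue. Ifit1 changed by 4.15 ± 0.39 in GS and 2.59 ± 0.38 in WT, and its GS and WT libraries at 3 d did not overlap. Such separation of the genotypes, in either direction, was seen in 12 of the 43 genes at 3 d, Rsad2 and Gbp2 among them. It was no rarer at other stages, with 15 of 43 in intact tissue and 18 of 43 at 6 h. With 2 libraries a group, such separation also arises often where nothing differs. Its share over all genes was not counted, so these counts are not read as a result about the set. Ifit3 had 10.4 and 11.7 CPM in GS at 3 d, against 2.07 and 1.66 CPM in intact GS striatum. Ifit3 in WT had 5.45 and 11.3 CPM at 3 d, against 1.67 and 1.31 CPM in intact tissue, and the fold change was 2.56 ± 0.37 in GS and 2.48 ± 0.38 in WT. Ifit2 changed by 2.17 ± 0.26 in GS and 1.25 ± 0.25 in WT and Ifit3b by 1.97 ± 0.28 in GS and 1.71 ± 0.28 in WT. These 4 genes lie in that order of Ifit2, Ifit3, Ifit3b and Ifit1 within 99460 bases of chromosome 19 (mm10, positions 34550550 to 34650009). Ifit3 and Ifit3b share 41.1% and 35.7% of the 75-base windows of their GENCODE M21 transcripts, so reads can be counted for either and their separate values are uncertain.

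The 3 tested OAS genes rose in both genotypes. The OAS family holds enzymes that make the 2′-5′ oligoadenylate that activates ribonuclease L. Oas1a had 3.57 and 6.41 CPM in GS at 3 d, against 0.41 and 0.308 CPM in intact GS striatum. Oas1a in WT had 1.44 and 5.13 CPM at 3 d, against 0.321 and 0.207 CPM in intact tissue, and the fold change was 3.79 ± 0.64 in GS and 3.63 ± 0.67 in WT. Oasl2 had 8.13 and 13 CPM in GS at 3 d, against 0.804 and 0.889 CPM in intact GS striatum. Oasl2 in WT had 6.46 and 12.1 CPM at 3 d, against 0.837 and 1.13 CPM in intact tissue, and the fold change was 3.64 ± 0.43 in GS and 3.24 ± 0.42 in WT. Oas2 changed by 3.18 ± 0.55 in GS and 2.26 ± 0.55 in WT, and WT 3 d replicate 1 was low (0.943 CPM) beside replicate 2 (3.34 CPM). Oas1a shares 47.6% of its windows with Oas1g, which is not in the table, so its value is uncertain.

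Of the other 10 antiviral effectors 8 rose in GS and 7 in WT. Bst2, which encodes tetherin, a protein that holds budding virions at the cell surface, had the largest fold change of them in GS. Bst2 had 7.83 and 10.1 CPM in GS at 3 d, against 0.975 and 0.667 CPM in intact GS striatum. Bst2 in WT had 4.46 and 8.81 CPM at 3 d, against 0.623 and 0.826 CPM in intact tissue, and the fold change was 3.45 ± 0.43 in GS and 3.19 ± 0.43 in WT. Ifitm3, which blocks viral entry through endosomes, changed by 2.61 ± 0.32 in GS and 3.24 ± 0.33 in WT. Rsad2 had 4.31 and 5.79 CPM in GS at 3 d, against 0.838 and 0.684 CPM in intact GS striatum. Rsad2 in WT had 1.22 and 2.29 CPM at 3 d, against 0.855 and 0.77 CPM in intact tissue. Rsad2, which encodes viperin, an enzyme that makes a chain-terminating nucleotide, changed by 2.73 ± 0.33 in GS and 1.11 ± 0.33 in WT, and the lower GS library stood above the higher WT library. Mx2, a dynamin-like GTPase, changed by 1.64 ± 0.25 in GS (edgeR adjusted p = 0.000208) and by 0.50 ± 0.25 in WT (edgeR adjusted p = 0.152). Ifitm2 changed by 0.51 ± 0.26 in GS (edgeR adjusted p = 0.15) and 1.54 ± 0.27 in WT, and 42% of its windows are shared with other annotated genes, most with the overlapping Gm45717. Samhd1, which removes nucleotides by hydrolysis, moved little, by 0.48 ± 0.11 in GS and 0.32 ± 0.11 in WT.

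Genes of the Isg15 system and the linked ubiquitin and ADP-ribose enzymes rose in 7 of 7 tested members in both genotypes. Isg15 had 3.23 and 3.02 CPM in GS at 3 d, against 0.701 and 0.342 CPM in intact GS striatum. Isg15 in WT had 2.38 and 3.54 CPM at 3 d, against 0.285 and 0.282 CPM in intact tissue. Isg15, the ubiquitin-like modifier itself, changed by 2.58 ± 0.45 in GS and 3.38 ± 0.49 in WT, and the 3 d libraries of both genotypes lay in one range. Trim30a had 10.2 and 20.8 CPM in GS at 3 d, against 1.59 and 1.49 CPM in intact GS striatum. Trim30a in WT had 7.39 and 12.2 CPM at 3 d, against 1.16 and 1.22 CPM in intact tissue, and the fold change was 3.33 ± 0.39 in GS and 3.04 ± 0.40 in WT. Parp9 and Dtx3l, which form an ADP-ribosylating ubiquitin ligase, changed by 2.62 ± 0.29 in GS and 1.81 ± 0.28 in WT and by 2.19 ± 0.25 in GS and 1.69 ± 0.25 in WT, and overlap at their ends on opposite strands. Parp14 changed by 2.55 ± 0.36 in GS and 2.15 ± 0.36 in WT, Trim25, the ligase that acts on RIG-I, by 1.13 ± 0.19 in GS and 0.62 ± 0.19 in WT, and Herc6, a ligase for Isg15 in mouse, by 1.57 ± 0.21 in GS and 1.36 ± 0.21 in WT.

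The 6 interferon-inducible GTPases, which act on the vacuoles of intracellular microbes, all rose in both genotypes. Gbp2 had 7.69 and 9.72 CPM in GS at 3 d, against 1.93 and 0.992 CPM in intact GS striatum. Gbp2 in WT had 16.6 and 9.82 CPM at 3 d, against 1.21 and 1.46 CPM in intact tissue, and the fold change was 2.57 ± 0.31 in GS and 3.30 ± 0.31 in WT. In Gbp2 the WT libraries at 3 d were above the GS libraries, the reverse of Ifit1 and Rsad2. Irgm1 had 15.1 and 23.4 CPM in GS at 3 d, against 3.2 and 3.4 CPM in intact GS striatum. Irgm1 in WT had 10.5 and 13.3 CPM at 3 d, against 2.97 and 2.91 CPM in intact tissue, and the fold change was 2.54 ± 0.19 in GS and 2.01 ± 0.19 in WT. Iigp1 changed by 3.10 ± 0.43 in GS and 2.04 ± 0.42 in WT. Igtp, Gbp3 and Gbp7 changed by 2.07, 2.41 and 1.52 in GS and by 1.75, 1.90 and 1.32 in WT.

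Among the remaining genes Ifi27l2a, which encodes a small mitochondrial-membrane family protein, had the largest fold change of the set. Ifi27l2a had 5.14 and 6.85 CPM in GS at 3 d, against 0.205 and 0.171 CPM in intact GS striatum. Ifi27l2a in WT had 1.68 and 6.36 CPM at 3 d, against 0.196 and 0.3 CPM in intact tissue, and the fold change was 4.98 ± 0.76 in GS and 4.02 ± 0.74 in WT. Its neighbour Ifi27 changed by 1.06 ± 0.17 in GS and 0.85 ± 0.17 in WT. Lgals3bp had 43.7 and 58.9 CPM in GS at 3 d, against 9.56 and 5.9 CPM in intact GS striatum. Lgals3bp in WT had 27.1 and 49.5 CPM at 3 d, against 7.44 and 6.8 CPM in intact tissue, and the fold change was 2.73 ± 0.34 in GS and 2.43 ± 0.34 in WT for this secreted galectin-3 ligand. Sp100, a nuclear body protein, changed by 1.85 ± 0.38 in GS and 1.59 ± 0.39 in WT, Ifi35 by 1.35 ± 0.31 in GS and 1.31 ± 0.32 in WT, and Xaf1 by 1.09 ± 0.23 in GS (edgeR adjusted p = 0.00196) and 0.28 ± 0.23 in WT (edgeR adjusted p = 0.387).

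Replicates differed in how far the set had moved. In WT 3 d replicate 2 was above replicate 1 for 41 of 43 genes, with a median difference of 0.68 on the log2 scale, and the exceptions were Ifitm2 and Gbp2. In GS 3 d replicate 2 was also above replicate 1 for 41 of 43, with a median difference of 0.42. At 15 d replicate 2 was above replicate 1 for 38 of 43 genes in GS and 38 of 43 in WT, with medians of 0.34 and 0.43. All 4 groups at these stages thus leaned towards replicate 2, while in the 6 h and intact groups it was higher for 15 to 20 of 43. The labels do not say whether a number marks anything shared between groups. In the 3 d libraries microglia markers summed to 1350.4 and 1679.6 CPM in GS 3 d replicates 1 and 2 and to 860.4 and 1367 CPM in WT 3 d replicates 1 and 2, so the higher library was the same for both. The part of cell numbers in this spread was not tested. Without WT 3 d replicate 2 the number of genes that rose in WT at 3 d was 29, and without any 1 of the 16 libraries it was 38 to 40 in GS.

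**Figure D3:**
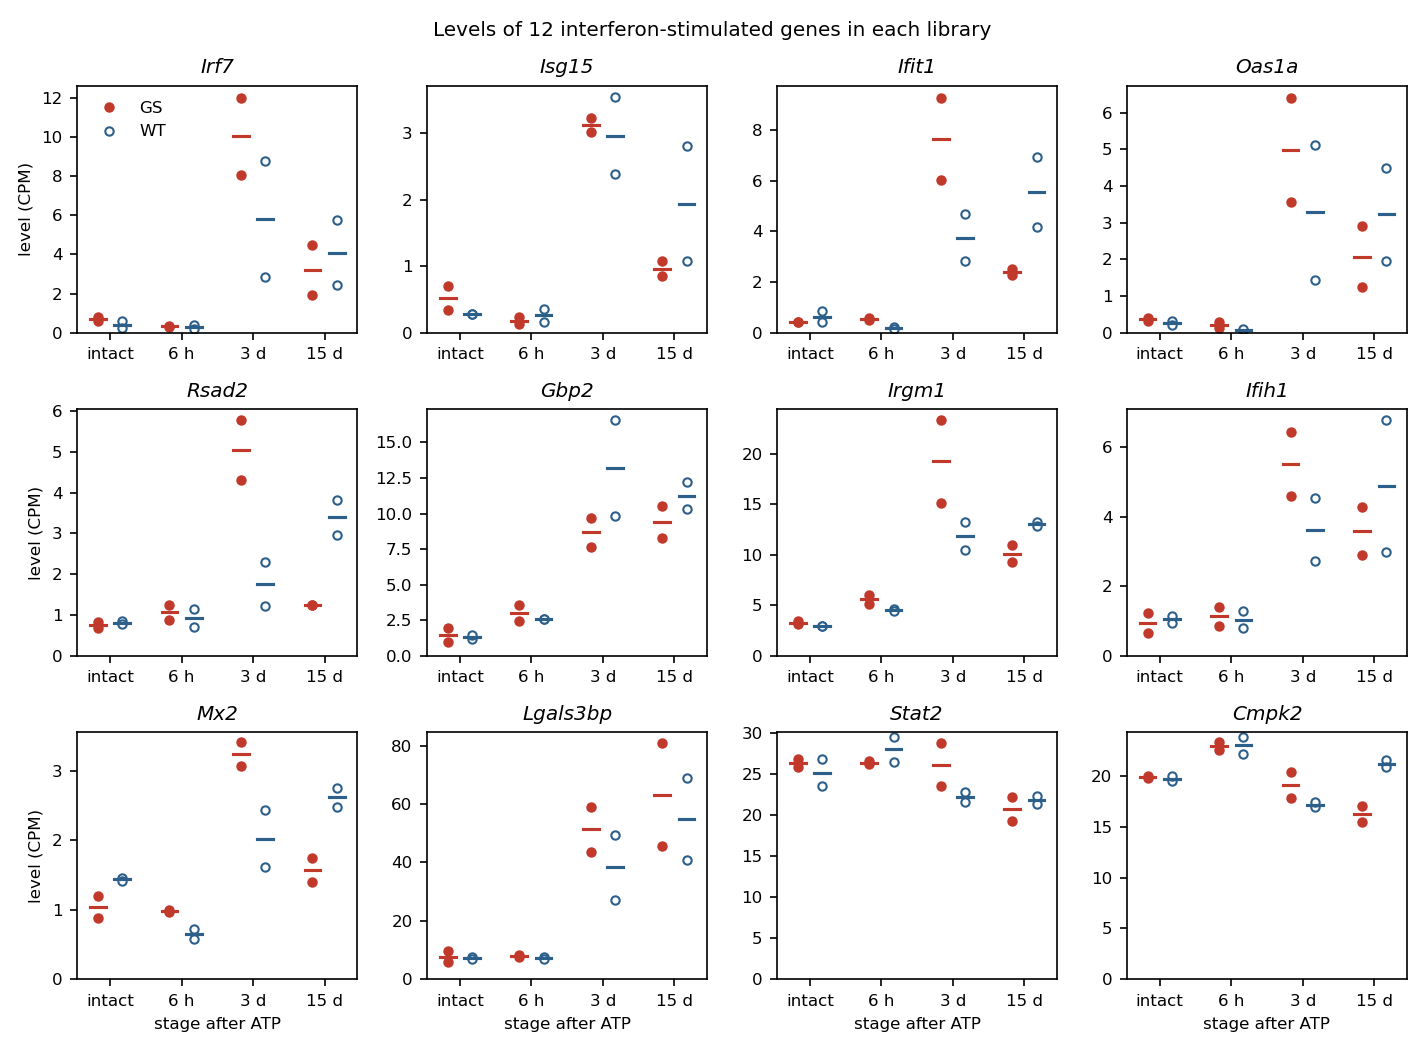
Level in CPM (y axes from 0) of 12 genes by stage, with a point for each library, a bar for the mean of 2, GS filled and WT open. Irf7, Isg15, Ifit1 and Oas1a were low in intact and 6 h striatum, Rsad2 was high at 3 d in GS and at 15 d in WT, and Stat2 and Cmpk2 stayed within a narrow range.

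At 15 d most of the set was still above intact striatum. In GS 34 of 43 genes were higher and 2 lower (Stat2 and Cmpk2), with a median log2 fold change of 1.37, against -0.013 over all genes tested, of which 19.4% rose and 17.6% fell. In WT 38 of 43 rose and none fell, with a median of 1.998, against -0.023 over all genes, of which 14.2% rose. Both genotypes shared 33 of the genes that rose at 15 d, and 32 genes rose at both 3 d and 15 d in both. Isg15, Rsad2, Mx2, Samhd1 and Sp100 rose at 15 d in WT and missed the threshold in GS, and Dhx58 the reverse. Without GS 15 d replicate 2 the number called in GS was 25, and without WT 15 d replicate 2 the number in WT was 30.

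At 15 d in GS Lgals3bp had 45.6 and 80.8 CPM, against 9.56 and 5.9 CPM in intact GS striatum (3.03 ± 0.34), and 40.7 and 69.1 CPM in WT at 15 d, against 7.44 and 6.8 CPM in intact WT striatum (2.94 ± 0.34). Bst2 had 3.64 and 7.98 CPM in GS and 4.09 and 6.87 CPM in WT at 15 d, and Trim30a 6.72 and 9.37 CPM in GS and 7.95 and 13.3 CPM in WT. In all 3 genes no 15 d library fell within the range of the intact ones. Isg15 had 0.845 and 1.08 CPM in GS at 15 d, against 0.701 and 0.342 CPM in intact GS striatum (0.88 ± 0.47, edgeR adjusted p = 0.162), and 1.07 and 2.81 CPM in WT at 15 d, against 0.285 and 0.282 CPM in intact WT striatum (2.76 ± 0.50, edgeR adjusted p = 0.00127). In both genotypes the 15 d libraries stood above the intact ones, by less in GS. Oas2 changed by 0.36 ± 0.59 in GS and 1.35 ± 0.57 in WT at 15 d, past the threshold in neither (edgeR adjusted p = 0.673 and 0.0989).

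Between 3 d and 15 d the set was lower in GS, with 6 genes past the threshold, and centred near 0 in WT. In GS 39 of 43 genes were lower at 15 d than at 3 d by their fold change, 6 of them past the threshold (Oas2, Rsad2, Ifit1, Rtp4, Mx2 and Irgm1) and none higher, with a median log2 fold change of -0.66 against -0.00029 over all genes, of which 1.02% fell. In WT 21 of 43 were lower and 22 higher by sign, none passed (DESeq2 called 2, Ifit2 and Cmpk2, both higher), and the median was 0.029 against 0.00037 over all genes, of which 3.2% changed. An unadjusted p under 0.05 was reached in WT by 7 of 43 (16.3%), below the 18.8% of all genes. Each of the 6 GS calls was lost without some library: none passed without GS 15 d replicate 1, GS 15 d replicate 2 or GS 3 d replicate 2, 13 passed without GS 3 d replicate 1, 10 without WT 3 d replicate 1 or 2, and DESeq2 called 15.

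Rsad2 had 1.25 and 1.24 CPM in GS at 15 d, against 4.31 and 5.79 CPM in GS at 3 d (-2.01 ± 0.31, edgeR adjusted p = 0.00789), and 2.96 and 3.82 CPM in WT at 15 d, against 1.22 and 2.29 CPM in WT at 3 d (0.94 ± 0.30, edgeR adjusted p = 0.105). The GS libraries at 15 d were all below those at 3 d, and the WT libraries at 15 d all above those at 3 d. Ifit1 had 2.5 and 2.27 CPM in GS at 15 d, against 6.02 and 9.28 CPM in GS at 3 d (-1.68 ± 0.33, edgeR adjusted p = 0.0221), and 4.19 and 6.92 CPM in WT at 15 d, against 2.81 and 4.7 CPM in WT at 3 d (0.56 ± 0.32, edgeR adjusted p = 0.373). The GS stages did not overlap, and the WT stages did. Oas2 had 0.792 and 0.414 CPM in GS at 15 d, against 3.59 and 5 CPM in GS at 3 d (-2.82 ± 0.54, edgeR adjusted p = 0.0192), and 0.636 and 1.67 CPM in WT at 15 d, against 0.943 and 3.34 CPM in WT at 3 d (-0.91 ± 0.51, edgeR adjusted p = 0.356). Here the sign was downward in both genotypes, and the WT stages overlapped. Mx2 had 1.39 and 1.75 CPM in GS at 15 d, against 3.07 and 3.41 CPM in GS at 3 d (-1.04 ± 0.24, edgeR adjusted p = 0.0422), and 2.48 and 2.75 CPM in WT at 15 d, against 1.61 and 2.43 CPM in WT at 3 d (0.37 ± 0.24, edgeR adjusted p = 0.44). Irgm1 had 9.29 and 10.9 CPM in GS at 15 d, against 15.1 and 23.4 CPM in GS at 3 d (-0.93 ± 0.18, edgeR adjusted p = 0.0194), and 13.3 and 12.9 CPM in WT at 15 d, against 10.5 and 13.3 CPM in WT at 3 d (0.14 ± 0.18, edgeR adjusted p = 0.732). In Mx2 the WT libraries at 15 d stood above those at 3 d, and in Irgm1 the WT stages overlapped. Rtp4, a chaperone protein of the Golgi that is induced by interferon, changed by -1.22 ± 0.26 in GS (edgeR adjusted p = 0.0315) and -0.059 ± 0.26 in WT. The 4 genes with an upward sign in GS were Ifitm2 (0.33 ± 0.26), Lgals3bp (0.30 ± 0.30), Isg20 (0.22 ± 0.47) and Gbp2 (0.11 ± 0.27), none past the threshold.

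**Figure D4:**
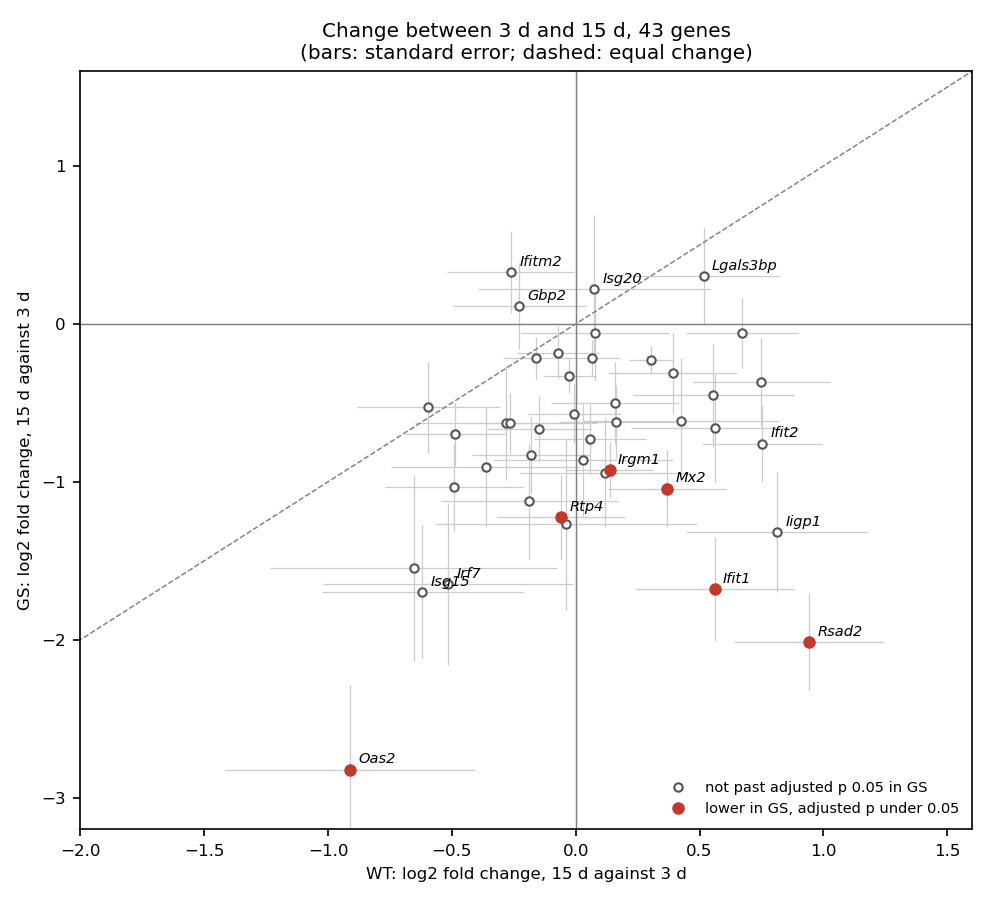
Log2 fold change of 15 d against 3 d in GS (y axis) and WT (x axis) for the 43 genes, with standard errors; filled points passed in GS and the dashed line marks equal change. Of the 43 points 39 lie below the dashed line, with Oas2, Rsad2 and Isg15 lowest on the GS axis, of which Isg15 did not pass.

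The difference between the genotypes in this change was tested as an interaction, and no gene of the set, nor any of the 18813 genes (0%), passed in edgeR. The GS change minus the WT change was negative for 39 of 43 genes with a median of -0.73, against 0.0022 over all genes, and 16 of 43 (37.2%) had an unadjusted p under 0.05, against 4.37% of all genes. The 43 genes move together within a library, so this count does not stand for 43 separate observations. Rsad2 came closest, with a difference of -2.96 ± 0.44 (edgeR adjusted p = 0.144). DESeq2 called Rsad2, Ifit1 and Ifit2 in this contrast.

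At 6 h few genes of the set differed from intact striatum. In GS 3 of 43 genes rose and 2 fell, with a median log2 fold change of -0.063, against 0.0055 over all genes, of which 7.47% rose and 6.37% fell. In WT none rose and 1 fell, with a median of -0.066, against -0.0056 over all genes, of which 2.54% rose and 1.55% fell. The counts are small and lie near the share over all genes. The genes that rose in GS were Gbp2, Irgm1 and Herc6, and those that fell were Sp100 and Irf9.

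Gbp2 had 3.59 and 2.44 CPM in GS at 6 h, against 1.93 and 0.992 CPM in intact GS striatum (1.05 ± 0.31, edgeR adjusted p = 0.0392), and 2.56 and 2.62 CPM in WT at 6 h, against 1.21 and 1.46 CPM in intact WT striatum (0.95 ± 0.32, edgeR adjusted p = 0.111). Irgm1 had 6.07 and 5.15 CPM in GS at 6 h, against 3.2 and 3.4 CPM in intact GS striatum (0.77 ± 0.19, edgeR adjusted p = 0.017), and 4.62 and 4.46 CPM in WT at 6 h, against 2.97 and 2.91 CPM in intact WT striatum (0.63 ± 0.20, edgeR adjusted p = 0.0883). The GS and WT libraries at 6 h of these GTPase genes were all above their intact libraries, though the WT change missed the threshold. Herc6 changed by 0.81 ± 0.21 in GS (edgeR adjusted p = 0.0193) and 0.62 ± 0.21 in WT (edgeR adjusted p = 0.111). Sp100 had 0.443 and 0.574 CPM in GS at 6 h, against 1.9 and 1.69 CPM in intact GS striatum (-1.82 ± 0.45, edgeR adjusted p = 0.0152), and 1.01 and 0.866 CPM in WT at 6 h, against 1.44 and 1.5 CPM in intact WT striatum (-0.65 ± 0.42, edgeR adjusted p = 0.415). Irf9 had 5.98 and 5.49 CPM in GS at 6 h, against 8.39 and 9.97 CPM in intact GS striatum (-0.68 ± 0.14, edgeR adjusted p = 0.0068), and 8.41 and 7.69 CPM in WT at 6 h, against 9.15 and 9.14 CPM in intact WT striatum (-0.18 ± 0.14, edgeR adjusted p = 0.497). For Sp100 and Irf9 the GS libraries at 6 h did not overlap the intact ones. In WT the gene that fell was Mx2, with 0.58 and 0.722 CPM at 6 h, against 1.46 and 1.41 CPM in intact WT striatum (-1.14 ± 0.27, edgeR adjusted p = 0.0303). Each of these 6 calls was lost without some library, none passed in GS without GS intact replicate 2, and DESeq2 called 5 genes in WT in place of 1, Gbp2, Irgm1 and Herc6 (higher) and Mx2 and Ifit1 (lower). In GS at 6 h 5 of 6 endothelium markers fell, and in both genotypes all 4 haemoglobin genes tested rose; their part in the values of the set was not tested.

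Between genotypes at the same stage no gene of the set passed in edgeR. The shares of all genes that passed were 0.0159% in intact tissue, 0.00532% after 6 h, 0.0106% after 3 d, 0.00532% after 15 d and 0.0106% averaged over stages, and DESeq2 called none of the set in any of these 5. The median difference of the set (GS minus WT) was 0.011 in intact tissue, -0.0049 after 6 h, 0.42 after 3 d and -0.32 after 15 d. The difference was positive for 40 of 43 genes at 3 d and negative for 36 of 43 at 15 d. An unadjusted p under 0.05 was reached by 2, 3, 10 and 10 of 43 genes at intact, 6 h, 3 d and 15 d and by 1 in the average. Over all genes the shares at that threshold were 10.9%, 6.83%, 8.25% and 4.86% at the 4 stages and 9.87% in the average. The set was thus below that background in intact tissue and in the average, near it at 6 h (6.98%) and above it at 3 d and 15 d (23.3% at each). The 43 genes move together within a library, so these counts do not stand for 43 separate observations. Between the 2 replicates of a group the median difference of the set was itself 0.42 in GS and 0.68 in WT at 3 d. At 15 d it was 0.34 in GS and 0.43 in WT. Rsad2 differed by 1.52 ± 0.30 at 3 d and -1.44 ± 0.31 at 15 d (edgeR adjusted p = 0.473 and 0.856). Ifit1 differed by 1.02 ± 0.32 at 3 d and -1.22 ± 0.33 at 15 d, Iigp1 by 0.68 ± 0.37 and -1.45 ± 0.38, and Irgm1 by 0.69 ± 0.18 and -0.37 ± 0.18, none past the threshold.

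The GS response minus the WT response, each against its own intact striatum, passed for no gene of the set at 6 h, 3 d or 15 d in edgeR or DESeq2, where 0.0106%, 0% and 0% of all genes passed in edgeR. It had an unadjusted p under 0.05 for 3, 6 and 5 of 43 genes (6.98%, 14% and 11.6%), against 9.42%, 9.92% and 5.46% of all genes. Here too the genes move together, so the counts are not of separate observations. The medians of the set were 0.019, 0.29 and -0.39. These contrasts reuse the intact libraries of each genotype, and the largest differences were 2.18 ± 0.68 for Ifit1 at 6 h, 1.61 ± 0.46 for Rsad2 at 3 d and -1.88 ± 0.69 for Isg15 at 15 d. The values for Ifit1 and Isg15 rest on low levels. Ifit1 had a mean of 0.174 CPM in WT at 6 h, and Isg15 had means of 0.522 CPM in intact GS and 0.283 CPM in intact WT striatum.

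Stat2 and Cmpk2 stood apart from the set throughout. Cmpk2, which encodes a mitochondrial nucleotide kinase, measured 19.8 and 19.98 CPM in the intact GS libraries, 17.8 and 20.4 CPM in those of 3 d and 17.1 and 15.5 CPM in those of 15 d. The WT libraries gave 19.5 and 19.98 CPM when intact, 17 and 17.4 CPM after 3 d and 21.6 and 20.9 CPM after 15 d. It fell in GS at 15 d (-0.29 ± 0.088, edgeR adjusted p = 0.0194), as did Stat2 (-0.35 ± 0.11, edgeR adjusted p = 0.0197). Cmpk2 lies beside Rsad2 on chromosome 12 (mm10, 26469117 to 26479837 and 26442743 to 26456452), and Rsad2 rose by 2.73 ± 0.33 in GS at 3 d where Cmpk2 changed by -0.059 ± 0.088. Neither Stat2 nor Cmpk2 shares exons with another annotated gene in GENCODE M21. Across the 8 group means the log2 level of Stat2 and Cmpk2 correlated with the mean profile of the set at -0.61 and -0.54, where the other 41 genes ran from 0.82 to 0.99. This is a description over 8 points that share libraries, and each gene is part of the mean it was compared with, which raises these values.

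The promoter matches can be set beside the response. The 15 genes of the set with an ISRE match had a median log2 fold change of 2.56 in GS and 2.01 in WT at 3 d, and the 19 without one in the window 1.67 in GS and 1.36 in WT. By count the order differed between genotypes: 13 of 15 with a match and 18 of 19 without one rose in GS, and 14 of 15 and 16 of 19 in WT. Of the 412 tested genes outside the set with a match, 26.2% rose in GS and 20.1% in WT at 3 d, against 19.3% and 15.4% of the 13121 without one. These are counts with no test, and a match is not a site shown to be bound.

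The interferon genes themselves (11 listed, among them Ifnb1 and Ifng) are not in the table and were not analysed here. Of the 6 receptor genes 5 rose and 1 fell in GS, and 4 rose and 0 fell in WT at 3 d. Il10rb, the shared chain of the interferon lambda and interleukin-10 receptors, changed by 1.66 ± 0.22 in GS and 1.59 ± 0.23 in WT, and the type I chain Ifnar2 by 0.84 ± 0.16 and 0.74 ± 0.16. Ifnlr1, the specific chain for interferon lambda, changed by -2.48 ± 0.51 in GS and, short of the threshold, -0.66 ± 0.46 in WT. In JAK-STAT signalling Stat3, a factor downstream of interleukin-6 family cytokines, rose by 0.72 ± 0.10 in GS and 0.89 ± 0.10 in WT, and the kinase Jak2 by 0.38 ± 0.10 and 0.53 ± 0.10. The kinases Jak1 and Tyk2 did not pass the threshold in either genotype. Jak1 changed by 0.078 ± 0.058 in GS and 0.14 ± 0.058 in WT, and Tyk2 by 0.21 ± 0.15 and -0.0062 ± 0.15.

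A list of 15 tested genes placed upstream of interferon held sensors, adaptors, kinases and transcription factors, and not all its sensors detect DNA or RNA. Of these 15 genes, 12 rose in GS and 11 in WT at 3 d, and none fell. Tlr7, a sensor of single-stranded RNA in endosomes, changed by 2.77 ± 0.31 in GS and 2.32 ± 0.31 in WT, Tlr4 by 2.55 ± 0.32 and 1.82 ± 0.32, and Irf8, a myeloid factor, by 1.84 ± 0.23 and 1.46 ± 0.23. Irf5 changed by 1.75 ± 0.24 in GS and 1.03 ± 0.24 in WT. Ikbke, a kinase that activates Irf3 and Irf7, changed by 1.29 ± 0.23 in GS and 1.54 ± 0.23 in WT. Irf3 and Tbk1, which are activated by phosphorylation, changed by -0.13 ± 0.091 and 0.024 ± 0.065 in GS, short of the threshold. Of 6 feedback inhibitors 3 rose in each genotype, with Socs3 at 3.19 ± 0.33 in GS and 3.11 ± 0.32 in WT, Ptpn6 at 2.64 ± 0.24 and 1.99 ± 0.24, and Ptpn2 at 0.38 ± 0.11 and 0.39 ± 0.11. Socs3 had risen at 6 h, by 3.12 ± 0.33 in GS and 2.45 ± 0.32 in WT, when few genes of the set had.

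A further list of 47 tested interferon-inducible genes outside the set was also counted: 37 rose and 1 fell in GS at 3 d, and 34 rose and 1 fell in WT. The list's median log2 fold change at 3 d was 1.64 in GS and 1.11 in WT. The Schlafen gene Slfn9 changed by 4.16 ± 0.49 in GS and 3.60 ± 0.50 in WT, and Nlrc5, the activator of MHC class I genes, by 3.46 ± 0.39 and 2.94 ± 0.39. Epsti1 changed by 3.30 ± 0.49 in GS and 2.21 ± 0.48 in WT, and Gbp6 by 2.65 ± 0.24 and 2.78 ± 0.24. Between 3 d and 15 d the list's median was -0.33 in GS and 0.069 in WT, with 1 of 47 genes lower past the threshold in each genotype. Among 15308 genes outside the set with a mean of at least 1 CPM, those whose group means of log2 CPM tracked the mean profile of the set closely included Ifnar1 (Pearson r = 0.996), Tap1 (0.993), Ube2l6 (0.991) and Zfp41 (0.988), over 8 groups.

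Markers of the cells that could carry these transcripts moved over the same stages. Microglia markers (12 of 12 tested, among them P2ry12, Cx3cr1 and Csf1r) rose in 12 of 12 in GS and 11 of 12 in WT at 3 d. In GS their summed level was 479 and 467 CPM when intact, 334 and 349.9 CPM after 6 h, 1350.4 and 1679.6 CPM after 3 d and 1522 and 2019 CPM after 15 d. In WT it was 463 and 457 CPM when intact, 349 and 319 CPM after 6 h, 860.4 and 1367 CPM after 3 d and 1008 and 1500.1 CPM after 15 d. The 43 genes of the set summed in GS to 174 and 163 CPM when intact, 176 and 168 CPM after 6 h, 422 and 583 CPM after 3 d and 311 and 415 CPM after 15 d. In WT the set summed to 169 and 161 CPM when intact, 169 and 170.2 CPM after 6 h, 328 and 461 CPM after 3 d and 361 and 477 CPM after 15 d. In GS the mean summed level of the set was lower at 15 d than at 3 d, while the mean microglia sum was higher at 15 d. The microglia sums of these GS stages overlapped. The set's sum gives most weight to genes of high level, such as Stat2, with a mean of 26.4 CPM in intact GS. Another is Lgals3bp, with means of 51.3 CPM at 3 d and 63.2 CPM at 15 d in GS, 1 of the 4 genes with an upward sign there. None of the 12 microglia markers passed between 15 d and 3 d in either genotype. Monocyte and macrophage markers (7 of 10 in the table, which lacks Ccr2, Plac8 and Chil3) differed among themselves between these stages. Lyz2, which microglia also make after injury, rose between 3 d and 15 d in GS and WT and gives most of the list’s sum at 15 d, 286 and 469.7 of 349 and 558 CPM in GS. Thbs1, F13a1 and Ly6c2 fell in GS and F13a1 in WT. Of 5 cycling cell markers 4 fell in GS and 2 in WT between 3 d and 15 d, the direction of the set in GS. Striatal neuron markers fell against intact striatum in 6 of 7 in GS and 1 of 7 in WT at 3 d, and in 7 of 7 in GS and 5 of 7 in WT at 15 d.

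**Figure D5:**
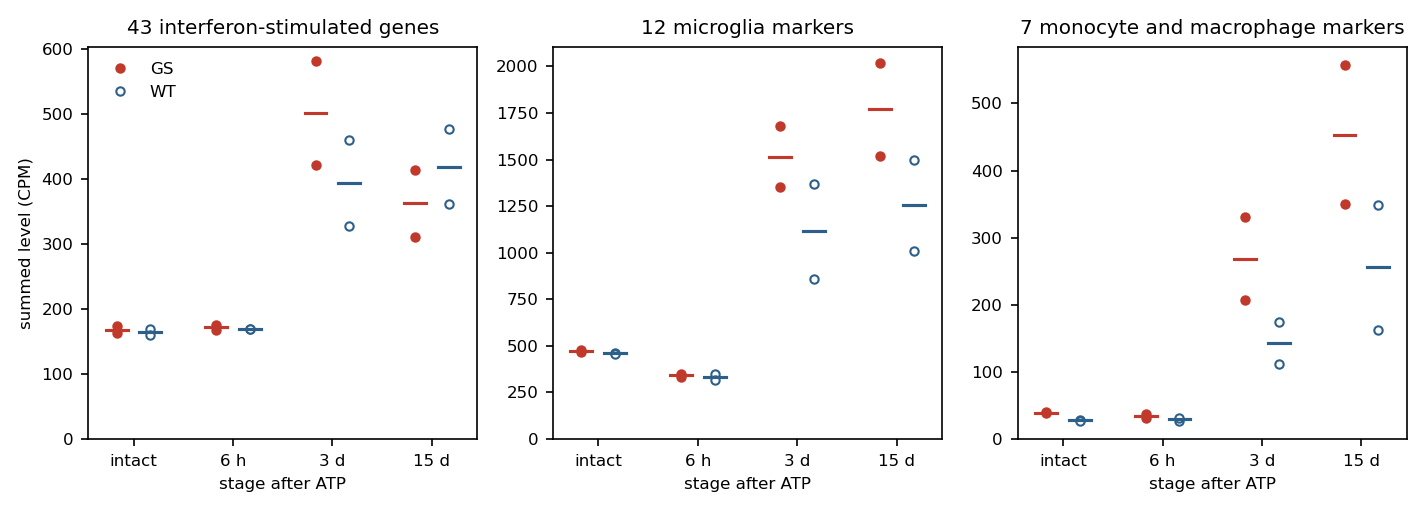
Summed level in CPM (y axes from 0) of the 43 interferon-stimulated genes, 12 microglia markers and 7 monocyte and macrophage markers by stage, with a point for each library, a bar for the mean, GS filled and WT open. The set was highest at 3 d in GS, while both marker sums were highest at 15 d in GS, the monocyte and macrophage sum through Lyz2.

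Astrocyte markers (6 of 6 tested) rose in 5 of 6 in each genotype at 3 d, endothelium markers in 1 of 6 in GS and 2 of 6 in WT, and cycling cell markers in 5 of 5 in each. Of the lymphocyte and neutrophil markers few are in the table: 2 of 10 for T and NK cells (Cd4 and Il2rb), none of 4 for B cells and 1 of 8 for neutrophils (Csf3r, which microglia also express). Their defining genes, such as Cd3e, Cd79a, Ly6g and S100a8, were not analysed here. Of the plasmacytoid dendritic cell list 3 of 6 are in the table (Tcf4, Irf8 and Pacsin1), and each is also expressed by neurons or microglia. The part of any of these cells in the rise of the set was not tested.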

How the data were processed

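RNA-seq of 16 mouse striatum libraries was analysed from the table of raw read counts per gene that the authors deposited. Per the submitters' processing notes FastQC 0.11.7 was run on the reads and the build was mm10, while aligner, counter and strand setting are not stated in what was used here. The table's columns name GS and NT, and the NT columns were read as WT because WT is the sole genotype in the labels besides GS. Without strand, reads of a gene and an antisense partner cannot be told apart, and reads shared by near-identical copies can be counted for either.

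Counts were filtered by expression within groups, which removed 644 of 19457 genes, TMM-scaled (factors 0.947 to 1.03) and fitted with edgeR 4.0.16 in R 4.3.3 by quasi-likelihood, with 1 coefficient for each of 8 groups, 8 residual degrees of freedom and a common biological coefficient of variation of 10.1%. There were 17 contrasts, each adjusted by Benjamini-Hochberg over 18813 genes at a threshold of 0.05. The scripts were tested on simulated data. DESeq2 1.42.0, other size factors, no filter, a replicate block, a cortical marker covariate and left-out libraries were alternatives. Replicates of a group differed by more than sampling noise, with a chi-square of 10.01 to 33.7 for each degree of freedom. The labels call them biological replicates, and no more is given on their origin.

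Total counts of 49220578 to 63948110 set the counting precision, and at 2 libraries a group the spread between libraries limits the tests. The genes of the set and all lists were chosen with earlier results of these data known. Genes were named by rule. The rule took the 3 with the largest change at 3 d in each role, and those past the threshold at 6 h. It also took those past the threshold between genotypes and those past it in neither genotype at 3 d. Its last part took those with an upward sign from 3 d to 15 d in either genotype. Not all of these are given by library. Other genes named, Rtp4 among them, were chosen after their values were seen. Results that need an item withheld for evaluation are not reported here.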

Additional observations from a re-analysis of the deposited data

Results flagged for a closer look

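The change between 3 d and 15 d differed between genotypes for 3 genes in a test of that difference by DESeq2, and for none by edgeR. The share of all genes that DESeq2 called in this contrast is not given here, so this count has no background beside it. The GS change minus the WT change was -2.96 ± 0.48 (DESeq2 adjusted p = 1.49e-05; edgeR adjusted p = 0.144) for Rsad2. For Ifit1 it was -2.24 ± 0.49 (DESeq2 adjusted p = 0.0214; edgeR adjusted p = 0.999). For Ifit2 it was -1.51 ± 0.34 (DESeq2 adjusted p = 0.043; edgeR adjusted p = 0.999). Leaving out each of the 16 libraries in turn gave differences of -3.49 to -2.57 for Rsad2. For Ifit1 they ran from -2.66 to -1.84 and for Ifit2 from -1.95 to -1.10. All were negative, but the intact and 6 h libraries are not part of this contrast, so leaving those out could move it little. The GS libraries of Rsad2 were lower at 15 d than at 3 d and the WT libraries higher, 2 of 2 in each genotype.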

How the results depend on the processing

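The counts of called genes at 3 d and 15 d against intact striatum stayed within 1.5 times of those reported under every alternative run, and no called gene changed direction. With the cortical marker covariate, 28 genes passed at 15 d in GS and 29 at 3 d in WT. Without the 3 WT libraries in which cortical markers were high (WT intact replicate 1, WT 6 h replicate 2, WT 15 d replicate 1), 31 passed in WT at 3 d and 31 at 15 d. Between 15 d and 3 d in GS, 10 passed with the groups of the contrast alone and 15 with DESeq2, and 0 to 13 without each library. At 6 h in WT, 2 passed with the replicate block, 2 with the cortical covariate, 2 with the groups of the contrast alone, 5 with DESeq2, 0 without the 3 WT libraries, and 0 to 3 without each library. At 6 h in GS, 0 to 6 passed without each library. Between 15 d and 3 d in WT, 1 passed with the replicate block, 2 with DESeq2 and 0 to 2 without each library. Between genotypes at 3 d, 0 to 2 passed without each library. For the genotype difference in the 3 d to 15 d change, 3 passed with DESeq2 and 0 to 1 without each library. Where a library was left out, the lone sample of its group was assumed to vary like the other groups. For DESeq2 the share of all genes called is not given beside these counts, so they are not set against a background. The cause of these changes was not tested. The deviations of same-numbered libraries correlated at -0.099 to 0.17 over 28 pairs of groups, above 0.1 in 3, and the main model holds no pairs. These correlations cover all genes and all stages. The set itself leaned towards replicate 2 at 3 d and 15 d. Whether its same-numbered libraries share anything was not tested. Genes absent from the table, and differences smaller than the spread of 2 libraries, are beyond what these data can show.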
